A study of Mus musculus with 20 samples.

Results

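Lipopolysaccharide (LPS) was compared with no stimulus in 4 small RNA libraries of mouse bone marrow macrophages, out of 20 libraries in the series. The 4 were chosen by their labels: cell type macrophage, with LPS or unstimulated, in each of the genotypes wild type (strain C57BL/6) and miR-155 knockout (B6.Cg-Mir155tm1.1Rsky/J, a germline deletion carried by every cell of the culture). Mice of both genotypes were 8 to 12 weeks old, and their marrow was differentiated into macrophages with M-CSF hybridoma supernatant. For macrophages, no source used here gives the dose or duration of LPS. The protocol states 200 ng/ml overnight for the dendritic cells of the same series. The other 16 libraries are the 6 macrophage cultures given oxLDL, eLDL or LDL (the lipoproteins of the labels) and 10 dendritic cell cultures under the same 5 states, grown with GM-CSF supernatant.

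LPS is the outer membrane glycolipid of Gram-negative bacteria and is sensed by Toll-like receptor 4, whose signalling through NF-kappaB switches macrophages to an inflammatory state. A microRNA (miRNA) is cut from a hairpin precursor, first by Drosha and then by Dicer, and the 5p or the 3p arm of the hairpin is loaded into an Argonaute protein. Bases 2 to 8 of the loaded strand, the seed, pair with target mRNAs, while the 3′ end can be trimmed or extended without changing the seed. In macrophages, miR-155 and miR-146a are the classical miRNAs induced by Toll-like receptors, miR-155 promoting and miR-146a restraining inflammatory signalling.

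Each condition holds 1 library, so no condition has a replicate, and the labels do not say whether the libraries came from separate mice. Values are given for each library, always in the order wild type unstimulated, wild type with LPS, knockout unstimulated, knockout with LPS. Levels are counts per 1e6 miRNA reads (CPM). A change with LPS is the log2 ratio fitted over the wild-type and the knockout pair, with its standard error (SE), from edgeR's quasi-likelihood test. The spread behind that test is the departure of the wild-type and knockout libraries from parallel responses, taken over all 20 libraries. The p-values measure only that spread, which is not a spread between replicates. It may be technical and may also hold differences between the genotypes in their responses. A change is called at a Benjamini-Hochberg adjusted p under 0.05 over all arms tested, and "rose" and "fell" are kept for called changes.

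The libraries held 13.5, 15, 19.5 and 16.2 M reads (M, 1e6), of which 7.18, 7.97, 9.42 and 7.85 M fell on annotated miRNA arms, so that 3 reads, the upper limit of a count of 0, were worth 0.319 to 0.418 CPM (counting error only). mRNA and protein markers of macrophages were not measured. Of the myeloid markers, miR-142a-3p, miR-142a-5p and miR-223-3p together made 21560 to 30610 CPM. The summed markers of liver and of muscle cells each stayed at 4.59 CPM or lower. Of the 4 listed erythroid markers only 2, the miR-144 arms, were matched by name, with a sum of 0.878 CPM or lower. The listed miR-451a and miR-486a-5p were not matched by name. The arm counted as miR-486-5p held 3304, 4177, 4171 and 5669 reads, so the erythroid sum is incomplete. Summed stromal markers made 3781 to 5468 CPM, of which miR-140-3p made 3560 to 4940 CPM, epithelial markers 192 to 275 CPM, neural markers 70 to 119 CPM and the lymphoid miR-150-5p 63.5 to 161 CPM. The unstimulated wild-type library stood apart on the first principal component of all arms (14.2, against 19.4 to 23.5 in the other 9 macrophage libraries and -22.8 to -17.6 in dendritic cells). It also held more of the stromal marker miR-143-3p (267 CPM) than the other 3 libraries (107, 0.637 and 7.52 CPM), with miR-145a-5p at 1.95 CPM and miR-214-3p at 0.835 CPM. The part of these markers in the results below was not tested. Calls that end without that library are named only in part, and the fit without it also calls other arms.

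The mature sequences of the miRNAs on which the results turn are shown from RefSeq (GRCm38.p6), with the seed in capitals. The first set holds the classical Toll-like receptor miRNAs. miR-146a-5p and miR-146b-5p share the seed GAGAACU and come from different chromosomes.
miR-155-5p: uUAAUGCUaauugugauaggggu
miR-146a-5p: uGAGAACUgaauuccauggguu
miR-146b-5p: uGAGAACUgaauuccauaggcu
The second set holds miRNAs that rose. miR-183-5p, miR-96-5p and miR-182-5p are made from 1 cluster on the minus strand of chromosome 6 (chr6:30169711-30169732, chr6:30169506-30169528 and chr6:30165962-30165986) and have related, not identical seeds. miR-101a-3p and miR-101b-3p are shifted by 1 base in RefSeq, which gives them different seeds.
miR-183-5p: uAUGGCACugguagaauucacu
miR-96-5p: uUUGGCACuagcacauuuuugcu
miR-182-5p: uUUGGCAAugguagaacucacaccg
miR-29a-3p: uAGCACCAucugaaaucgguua
miR-101a-3p: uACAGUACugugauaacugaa
miR-101b-3p: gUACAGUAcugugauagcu
miR-22-3p: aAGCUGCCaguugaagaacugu
miR-34a-5p: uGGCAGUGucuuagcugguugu
The third set holds miRNAs that fell. The miR-99b cluster lies on the plus strand of chromosome 17 (chr17:17830194-17830215 for miR-99b-5p to chr17:17830817-17830840 for miR-125a-5p), where its last hairpin overlaps an exon of Spaca6. The others are myeloid miR-223-3p and a group of 3p or 5p strands that are the rarer product of their hairpin.
miR-99b-5p: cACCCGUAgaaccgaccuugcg
miR-99b-3p: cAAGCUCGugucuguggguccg
let-7e-5p: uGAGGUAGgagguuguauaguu
miR-125a-5p: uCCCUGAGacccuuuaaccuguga
miR-223-3p: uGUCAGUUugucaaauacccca
miR-181a-1-3p: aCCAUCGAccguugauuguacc
miR-27a-5p: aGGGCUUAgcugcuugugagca
miR-342-5p: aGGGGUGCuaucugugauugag
miR-16-1-3p: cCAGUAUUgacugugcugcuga

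The targeted miRNA was examined first. miR-155-5p stood at 5349 CPM in unstimulated and 39820 CPM in LPS-treated wild-type macrophages, and at 3.93 and 4.20 CPM in the knockout. The passenger arm miR-155-3p stood at 32.0 and 221 CPM in the wild type and was not read in either knockout library. Both arms were thus several times higher with LPS in wild-type cells and near background in both knockout libraries, as the labels say. The fit over both pairs left miR-155-5p uncalled (adjusted p = 0.101, edgeR), with adjusted p = 0.0252 without the unstimulated knockout library and 0.0456 in the 10 macrophage libraries alone. The wild-type difference rests on 1 pair of libraries.

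Across all 372 arms tested, LPS changed 72 (19.4%): 50 rose (13.4%) and 22 fell (5.91%). Of the 72, 44 changed more than 2-fold and 69 moved the same way in the wild-type and the knockout pair. Pairs that agree are favoured by the test, so the 69 are no separate evidence of agreement. The share among all 372 arms was not computed. Besides miR-155-3p the arms that rose included the miR-183 cluster, miR-29a-3p, miR-147-3p, miR-146a-5p, miR-101a-3p, miR-22-3p and miR-34a-5p. Those that fell included miR-181a-1-3p, the miR-99b cluster, miR-223-3p, miR-378a-3p and miR-342-5p. The median arm moved by 0.19 on the log2 scale. With upper-quartile scaling 41 rose and 29 fell, with total miRNA reads 45 and 31, and with DESeq2 49 and 41, so the excess of rises depends on the scaling. Of the 72 calls, 27 held with each of the 4 libraries left out in turn, and leaving out the unstimulated wild-type or the LPS-treated knockout library cut the number of calls to 46 and 47.

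**Figure D1:**
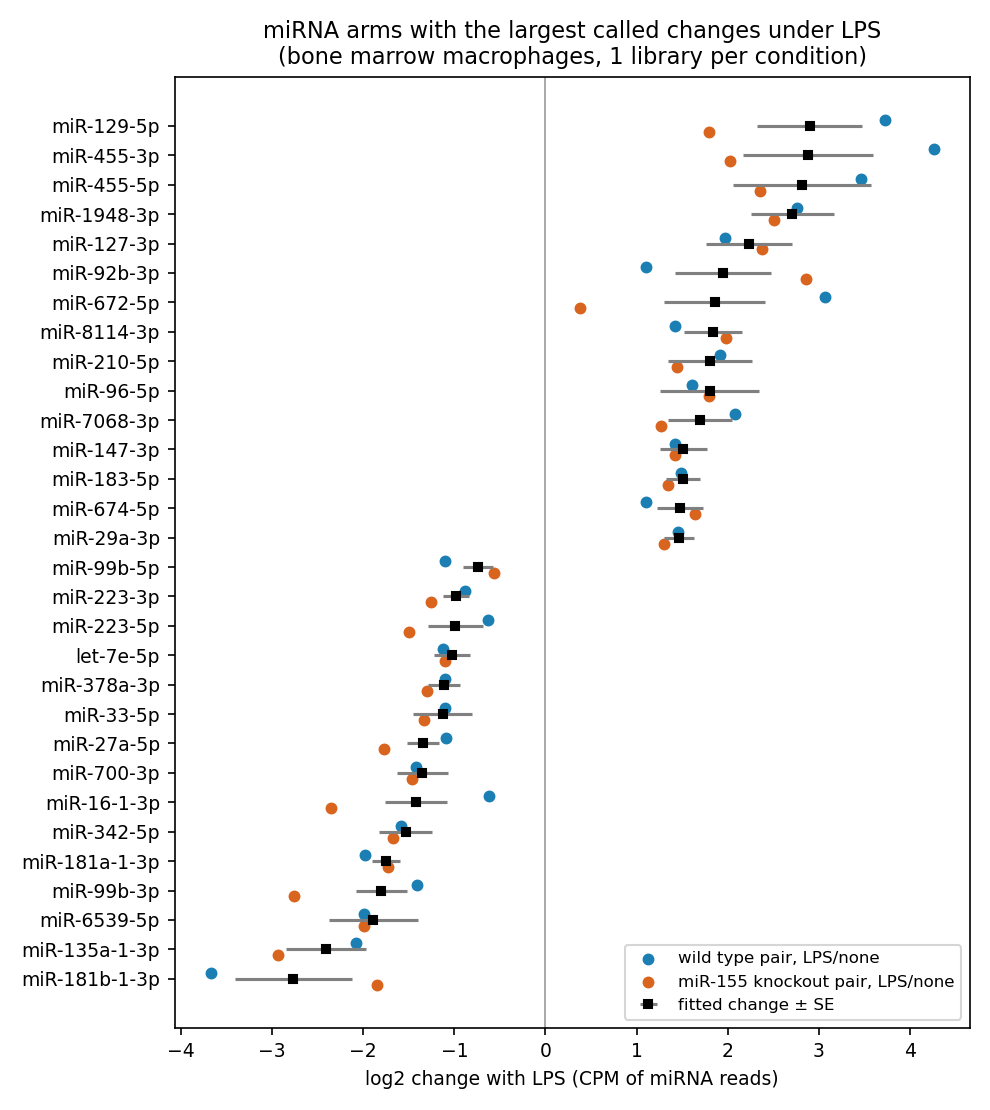
The 15 largest called rises and 15 largest called falls, with at least 50 reads on average and the same direction in both pairs. The horizontal axis is the log2 ratio of LPS over no stimulus, blue and orange points are the wild-type and knockout pair, and black squares with bars are the fitted change ± SE. The pairs lie on the same side of 0 for every arm, by the rule of choice.

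The same 2 miRNAs led in all 4 libraries. miR-146b-5p made 23.6, 23.2, 26.8 and 24.8% of miRNA reads, and miR-21a-5p, an abundant miRNA of many activated cells, made 20.6, 18.1, 16.6 and 14.4%. miR-181a-5p (5.56, 6.45, 7.39 and 9.09%) and let-7f-5p (5.01, 5.10, 6.15 and 7.10%) followed by their mean over the 4 libraries, ahead of miR-10a-5p (8.22, 5.87, 3.75 and 2.32%). Of these 5, miR-10a-5p alone was called. Among the 12 most abundant arms, miR-22-3p rose and miR-10a-5p fell, the latter from 82200 to 58710 CPM and from 37520 to 23160 CPM (log2 -0.50 ± 0.13 SE, adjusted p = 0.0127, edgeR). The miR-10a-5p call held in 1 of the 4 fits that left out a library.

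Of the 21 tested miRNAs listed as induced by Toll-like receptors, 8 rose and none fell, where 13.4% of all arms rose, with a median log2 change of 0.84 against 0.19 for all arms. miR-146a-5p, a negative regulator of Toll-like receptor signalling, stood at 452.5, 1407, 1049 and 1481 CPM. It rose by 1.16 ± 0.20 on the log2 scale (adjusted p = 6.49e-04, edgeR), 3.11-fold in the wild-type and 1.41-fold in the knockout pair. The unstimulated wild-type library was the low one, and the lipoprotein libraries (830 to 1713 CPM) covered both LPS values. Against them the LPS libraries differed by 0.41 ± 0.16 (adjusted p = 0.0983, uncalled, edgeR).

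miR-147-3p, which dampens cytokine production downstream of Toll-like receptors, stood at 709, 1898, 433 and 1158 CPM. Both LPS libraries lay above the other 8 macrophage libraries, whose lipoprotein members ran from 561 to 940 CPM, and the change was 1.51 ± 0.26 (adjusted p = 7.10e-04, edgeR). The 5p arm of the same hairpin rose less, by 0.67 ± 0.16 (adjusted p = 0.00666, edgeR), from 417 to 596 and from 251 to 390 CPM. Its hairpin lies in an exon of AA467197.

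The other called members were miR-155-3p, miR-132-3p, miR-9-3p and both arms of miR-455. miR-132-3p stood at 104, 266, 167 and 270.5 CPM (1.08 ± 0.23, adjusted p = 0.00255, edgeR). miR-455-3p, at 3.62, 69.3, 22.5 and 91.6 CPM, and miR-455-5p, at 5.01, 55.2, 18.5 and 94.3 CPM, differed in the size of the change between the pairs. The unstimulated wild-type library was again the lowest of the 4, and each miR-455 call held in 1 of the 4 fits that left out a library. Of the uncalled members, miR-9-5p stood at 5081, 6907, 15290 and 13100 CPM and miR-21a-3p at 1874, 2821, 1380 and 987 CPM, so the pairs differed in direction. miR-221-3p stood at 2076, 3847, 2343 and 2196 CPM.

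All 3 members of the miR-183 cluster rose under each of the 3 scalings, where 13.4% of all arms rose in the main fit. Their median log2 change was 1.51. These miRNAs are known from sensory cells and from lymphocytes. miR-183-5p stood at 1052, 2963, 1621 and 4124 CPM, a change of 1.51 ± 0.19 (adjusted p = 7.06e-05, edgeR). miR-182-5p stood at 1794, 5032, 2764 and 6214 CPM, a change of 1.41 ± 0.19 (adjusted p = 7.14e-05, edgeR). For both, the LPS libraries lay above the other 8 macrophage libraries, the lipoprotein values being 1759 to 2027 and 2982 to 3348 CPM. The rare miR-96-5p (5.29, 16.2, 6.27 and 21.8 CPM) rose by 1.8 ± 0.54 (adjusted p = 0.0286, edgeR), a call that ended when any of the 4 libraries was left out.

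Among abundant arms outside the lists of Toll-like receptor miRNAs, miR-22-3p rose from 15870 to 25680 CPM and from 14770 to 27370 CPM (0.89 ± 0.13, adjusted p = 1.69e-04, edgeR), above all 8 other macrophage libraries. miR-101a-3p and miR-101b-3p, which target chromatin regulators such as Ezh2, rose too. miR-101a-3p stood at 699, 1460, 592 and 1260 CPM (1.17 ± 0.15, adjusted p = 7.14e-05), against 578 to 780 CPM with lipoproteins, and miR-101b-3p at 761, 1736, 1938 and 3246 CPM (1.04 ± 0.18). miR-34a-5p, a p53 target, rose from 212 to 382 CPM and from 402 to 832 CPM (1.06 ± 0.20, adjusted p = 0.0013). These 4 calls held in each fit that left out a library.

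Of the 10 members of the miR-29 and miR-30 families, miR-29a-3p rose and miR-30e-5p and miR-30e-3p fell. Of all arms, 13.4% rose and 5.91% fell. miR-29a-3p, known to repress collagen genes, stood at 417, 1140, 732 and 1799 CPM (1.47 ± 0.17, adjusted p = 3.67e-05, edgeR). Its family member miR-29b-3p stood at 92.6, 123, 154 and 191 CPM and was not called, and miR-29c-3p stood at 41.2, 39.6, 39.4 and 33.8 CPM. The lipoprotein range of miR-29a-3p, 813 to 1365 CPM, overlapped the LPS values. The remaining arms with the largest rises were rare: miR-129-5p (1.81, 24.0, 4.25 and 14.8 CPM), miR-1948-3p (3.90, 26.3, 7.01 and 39.9 CPM) and miR-127-3p (7.38, 29.0, 3.5 and 18.2 CPM) rose by 2.90, 2.71 and 2.23 on the log2 scale. miR-99a-3p was also called higher, but it was read in the LPS-treated knockout library alone, at 1.15 CPM.

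**Figure D2:**
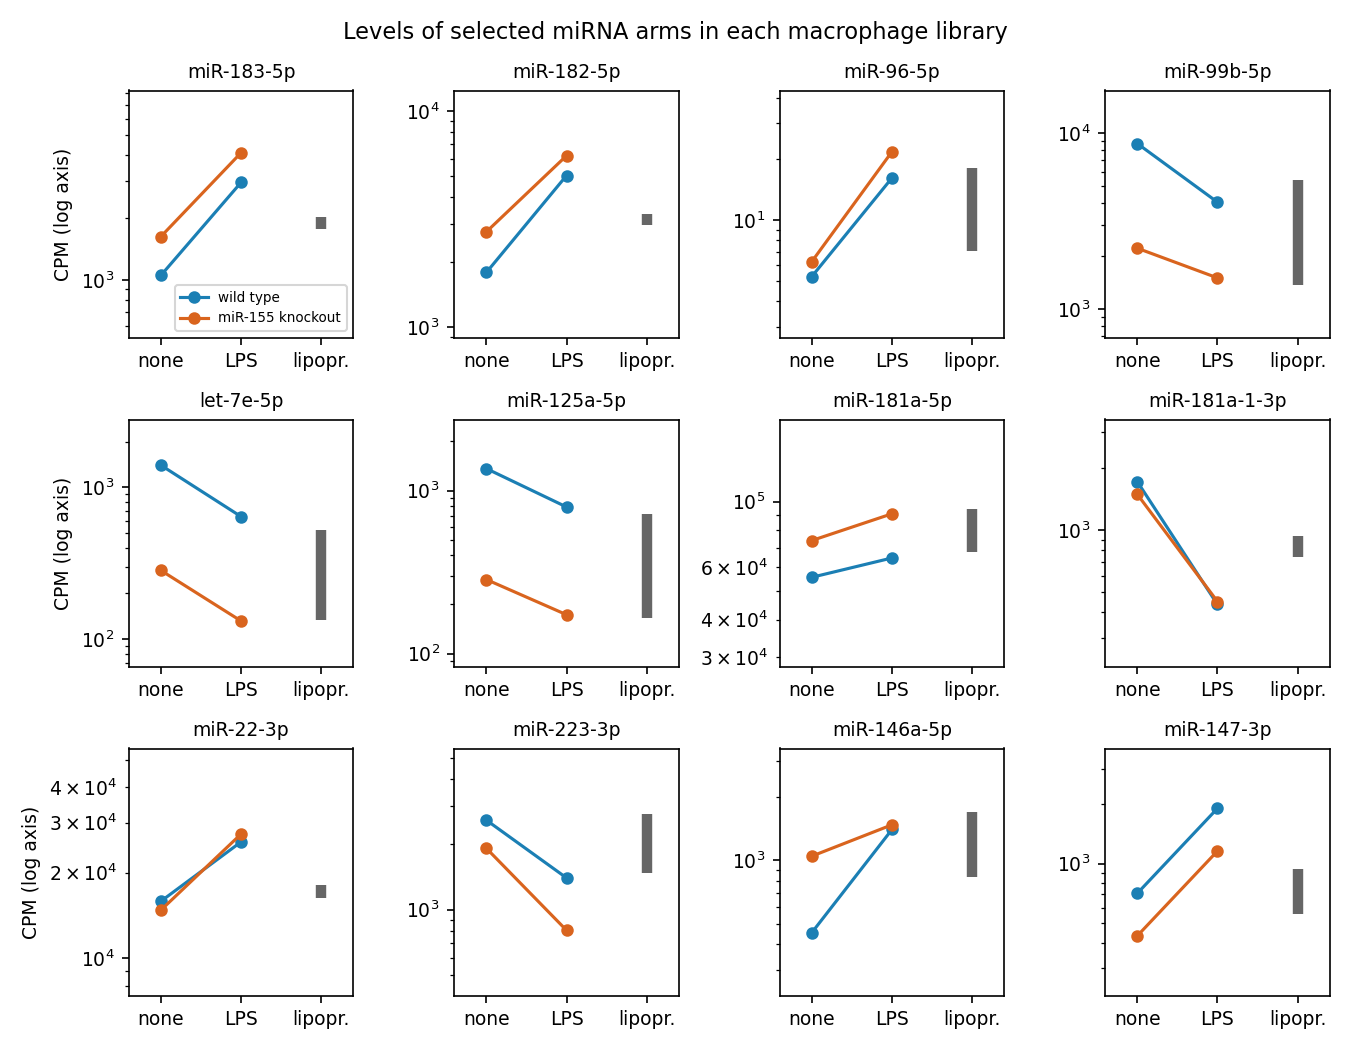
Levels of 12 arms on logarithmic CPM axes. Blue and orange points are the wild-type and knockout libraries without stimulus and with LPS, and the grey bar (lipopr.) is the range of the 6 oxLDL, eLDL and LDL macrophage libraries. Both LPS values lie above the bar for miR-183-5p, miR-182-5p, miR-22-3p and miR-147-3p, and below it for miR-181a-1-3p and miR-223-3p.

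Among falls, the largest with high read numbers was that of miR-181a-1-3p, the 3p strand of the Mir181a-1 hairpin. It stood at 1717, 436.5, 1491 and 451 CPM, and both LPS libraries lay below the lipoprotein range of 740 to 939 CPM. The change was -1.75 ± 0.16 (adjusted p = 2.15e-06, edgeR), and leaving out 1 library moved it between -1.97 and -1.55. The 5p strand of the same hairpin, miR-181a-5p, which has a copy in Mir181a-2, was not called, at 55560, 64550, 73900 and 90940 CPM. miR-181b-1-3p, from the neighbouring hairpin Mir181b-1, fell from 19.2 to 1.51 CPM and from 6.90 to 1.91 CPM, and miR-181c-5p rose from 139 to 334 CPM and from 479.5 to 778 CPM. The miR-181 family tunes receptor signalling in lymphocytes. Of its 8 members, 1 rose and 2 fell, where 13.4% of all arms rose and 5.91% fell. With each of the other edgeR scalings 1 member rose and 4 fell.

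The miR-99b cluster, of which 4 of 6 arms fell and none rose (5.91% of all arms fell), encodes miR-99b, let-7e and miR-125a. Its median log2 change was -0.88. let-7e-5p, a let-7 family member, stood at 1399, 642, 284 and 132 CPM (-1.03 ± 0.20, adjusted p = 0.00147, edgeR). miR-99b-5p stood at 8694, 4042, 2215 and 1503 CPM (-0.74 ± 0.17, adjusted p = 0.00424) and miR-125a-5p at 1363, 792, 284.5 and 173 CPM (-0.66 ± 0.22, adjusted p = 0.0452). Both LPS values were below those of their own genotype without stimulus, but the unstimulated wild-type library held far more of the cluster than the unstimulated knockout library. The lipoprotein libraries (133 to 525.5 CPM for let-7e-5p) overlapped the knockout values, and against them let-7e-5p differed by 0.23 ± 0.16 (adjusted p = 0.378, uncalled). The miR-99b-5p call held in 2 and the miR-125a-5p call in none of the 4 fits that left out a library. let-7e-5p was the 1 called member of the 9 let-7 arms, where 19.4% of all arms were called.

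Of 11 myeloid differentiation miRNAs, 3 fell and none rose, where 5.91% of all arms fell (median -0.13). miR-223-3p, a regulator of granulocyte and macrophage maturation and of the NLRP3 inflammasome, stood at 2584, 1400, 1917 and 803 CPM (-0.98 ± 0.14, adjusted p = 1.69e-04, edgeR). Its 5p strand fell to a similar degree, from 145 to 93.3 and from 120 to 42.4 CPM. miR-342-5p stood at 109, 36.2, 79.5 and 25.0 CPM (-1.53 ± 0.29, adjusted p = 0.00135), whereas the guide miR-342-3p of the same hairpin, which lies in an intron of Evl, stood at 2024, 1810, 2017 and 1898 CPM and was not called. miR-223-3p and miR-342-5p were lower in both LPS libraries than in the other 8 macrophage libraries.

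Among 8 miRNAs of alternative activation and metabolism, 3 fell and none rose, where 5.91% of all arms fell (median -0.47). miR-378a-3p, encoded in an intron of Ppargc1b and linked to oxidative metabolism, fell from 18670 to 8679 CPM and from 14630 to 5955 CPM (-1.11 ± 0.17, adjusted p = 3.58e-04, edgeR). Reads of the related Mir378b and Mir378c hairpins cannot be separated from it. miR-33-5p, from an intron of the cholesterol regulator Srebf2, stood at 21, 9.78, 34.3 and 13.6 CPM (-1.13 ± 0.32, adjusted p = 0.0216), and its call ended when any 1 of the 4 libraries was left out. miR-511-3p, from the mannose receptor locus, fell from 84.8 to 47.1 CPM and from 50.9 to 30.5 CPM.

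Other groups moved in few members, where 13.4% of all arms rose and 5.91% fell. Of 11 arms of the miR-23 clusters, miR-27b-3p rose and the passenger strand miR-27a-5p fell, from 189 to 88.4 and from 222.5 to 65.3 CPM (-1.35 ± 0.18, adjusted p = 7.14e-05, edgeR). With upper-quartile scaling none of these 11 arms rose and 1 fell. Of 12 arms of the miR-17 clusters, 1 changed: miR-93-5p fell (log2 -0.41 ± 0.13). Of 9 arms of the miR-15 and miR-16 clusters, miR-503-5p rose and miR-16-1-3p fell, while miR-16-5p stayed uncalled at 11220, 10860, 13880 and 11740 CPM. Of 8 miRNAs reported to fall with inflammatory signals, 3 rose (miR-103-3p, miR-181c-5p and miR-27b-3p) and 1 fell (miR-223-3p). The split was 1 and 1 with upper-quartile scaling and 3 and 1 with total miRNA reads. Of marker miRNAs of other cells, miR-150-5p (lymphoid), miR-200a-3p (epithelial), miR-128-3p and miR-129-5p (neural) were called higher, at 161 CPM or lower in each of the 4 libraries.

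The response was next set against the genotype. Of 372 arms, 4 (1.08%) were called different between the knockout and the wild-type response. miR-92a-1-5p stood at 34.8 and 7.02 CPM in the wild type and at 26.6 and 27.0 CPM in the knockout (difference 2.4 ± 0.41, adjusted p = 0.00537, edgeR). miR-351-5p stood at 319, 170, 252 and 316 CPM (1.39 ± 0.26, adjusted p = 0.0108), against 348 to 480 CPM with lipoproteins. miR-3473b-3p, at 10.6, 15.5, 15.4 and 4.20 CPM, differed the other way. miR-125b-2-3p, at 3.62, 2.88 and 5.73 CPM in the first 3 libraries, was not read in the LPS-treated knockout library, which against a limit of 3 reads is at least 15-fold lower than in the unstimulated knockout. Each difference rests on 1 library per condition. The split of 2 higher and 2 lower differences became 1 and 4 with upper-quartile scaling and 2 and 3 with total miRNA reads.

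Against the mean of the 6 lipoprotein libraries, LPS changed 47 of 372 arms (12.6%), 32 higher and 15 lower, in a comparison that shares the LPS libraries. The split was 43 and 10 with upper-quartile scaling and 28 and 31 with total miRNA reads. Of the 50 arms that rose against no stimulus, 19 were higher in both LPS libraries than in all 8 other macrophage libraries. Of the 22 that fell, 14 were lower than in all 8. These arms were called from the same LPS and unstimulated libraries, so part of the separation is set by the choice. The share among all 372 arms was not computed. Values against lipoproteins were 1.17 ± 0.12 for miR-101a-3p, 1.07 ± 0.14 for miR-183-5p, 0.80 ± 0.10 for miR-22-3p and -0.74 ± 0.13 for miR-181a-1-3p, with adjusted p from 8.72e-06 to 0.00105 (edgeR).

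The dendritic cells of the series give an LPS response in separate libraries. The difference between the responses was called for 49 of 372 arms (13.2%), 32 higher in macrophages and 17 lower, and for 78 and 11 when libraries were scaled by total miRNA reads. The miR-99b cluster went opposite ways. let-7e-5p stood at 3930, 9738, 5552 and 9718 CPM in dendritic cells (1.43 ± 0.20), against the fall in macrophages. The difference was -2.45 ± 0.28 (adjusted p = 2.05e-05, edgeR). miR-125a-5p, at 5706, 10840, 5717 and 12200 CPM, differed by -2.07 ± 0.31 (adjusted p = 4.56e-04). In dendritic cells, unlike in macrophages, the 2 unstimulated libraries were alike for miR-125a-5p.

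The miR-183 cluster differed in the other direction. miR-183-5p stood at 348, 207, 254 and 148 CPM in dendritic cells, and the difference was 1.88 ± 0.27 (adjusted p = 1.98e-04, edgeR). miR-182-5p, at 738.5, 531, 548 and 378 CPM, differed by 1.51 ± 0.26 (adjusted p = 0.00107). miR-147-3p was almost unread in unstimulated dendritic cells (2.32 and 3.48 CPM) and reached 283 and 266 CPM with LPS, a change of 6.92 ± 0.36 that began far below the macrophage level. miR-181a-1-3p (585, 145, 527 and 168 CPM) and miR-223-3p (3611, 1364, 3077 and 1288 CPM) fell in dendritic cells too (log2 -1.44 and -0.94), and neither difference between the cell types was called (adjusted p = 0.371 and 0.912).

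Arm choice was measured as the ratio of 5p to 3p reads of a hairpin, which needs no scaling between libraries. Of 98 hairpins, 3 (3.06%) changed, all toward the 5p arm (limma on the 10 macrophage libraries). The single direction did not hold in other settings. With all 20 libraries 5 hairpins were called toward the 5p and 4 toward the 3p arm. With at least 50 reads on the lower arm the split was 7 and 5. Each of these settings kept 2 of the 3 calls. Mir32, in an intron of Tmem245 (chr4:56895229-56895298), gives the 2 strands shown here because its balance moved most among the 3 called hairpins.
miR-32-5p: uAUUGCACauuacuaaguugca
miR-32-3p: cAAUUUAGugugugugauauu
The 3p strand of Mir32 made 12.0 and 14.1% of its reads without stimulus and 1.4 and 1.57% with LPS, outside the range of 4.91 to 12.9% in the lipoprotein libraries. The ratio changed by 3.14 ± 0.32 on the log2 scale (adjusted p = 0.00486, limma), and the call held without each of the 4 libraries. The 3p strand rested on 20, 3, 40 and 4 reads, against 147, 211, 243 and 250 reads of the 5p strand.

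For Mir700 the 3p share went from 86.8 to 57.4% and from 83.8 to 64.1% (1.91 ± 0.27, adjusted p = 0.0184, limma), with 127 to 420 reads of the 3p strand. Without 1 of the 4 libraries the Mir700 change was 1.634 to 2.175, and the call did not hold in every such fit. Mir191 gave a 3p share of 0.105, 0.0463, 0.0818 and 0.0434%, a change of 1.04 ± 0.18 (adjusted p = 0.0368) that held in none of the fits without 1 library. The balance of Mir147 moved toward the 3p arm in both pairs, from 62.9 to 76.1% and from 63.3 to 74.8%, and missed the threshold (adjusted p = 0.0585). Both Mir147 values with LPS lay above the lipoprotein range of 59.2 to 65.1%.

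The ends of the miRNAs were then compared among reads without mismatch. The 5′ end, which sets the seed, changed in 1 of 136 arms (0.735%), miR-140-3p. This miRNA, from a hairpin in Wwp2, is read from 2 starts, 1 base apart, and so with 2 seeds. Shown are the annotated form and the most read deposited tag of the later start, with the seed of each in capitals.
miR-140-3p: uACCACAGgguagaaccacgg
later start: aCCACAGGgtagaaccacggac
The annotated start made 45.9, 54.6, 46.8 and 58.5% of the reads, and the later start made 51.2, 43.2, 50.1 and 39.2%. The later start was thus the more read one in both unstimulated libraries and the annotated start in both LPS libraries. The single tag of the later start shown made 32.6, 22.7, 31.6 and 17.5%. The change in the annotated start was 0.59 ± 0.07 in log2 odds (adjusted p = 0.022, limma), with lipoprotein libraries between 50.2 and 53.1%. The call held in 1 of the 4 fits that left out a library and ended without the wild-type eLDL library. The 2 main starts of miR-142a-5p, a blood cell miRNA, lie 2 bases apart. The later start made 48.0, 40.8, 54.6 and 39.6% of its reads and the earlier one 46.8, 54.5, 40.2 and 55.3%, so that the earlier start was the more read one in both LPS libraries and the later one in both unstimulated libraries. The change in the later start was not called.

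At the 3′ end the change was broad. Of 136 arms, 66 (48.5%) ended earlier with LPS and none was called longer (limma on the mean end position of an arm's reads). The end lay earlier in both pairs in 111 arms and later in both pairs in 5. The median change was -0.14 nt, and 10 arms were called shorter by 0.5 nt or more, which made the change small for most arms and large for a few. For 54 of the 66, both LPS libraries lay below the other 8 macrophage libraries, as they did for 67 of all 136 arms. Both lay above the other 8 in 1 arm. The 66 were called from the same LPS and unstimulated libraries, so their separation is partly set by the choice. The calls numbered 43 to 91 when 1 of the 4 libraries was left out, and 40 of the 66 held in all 4 such fits.

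**Figure D3:**
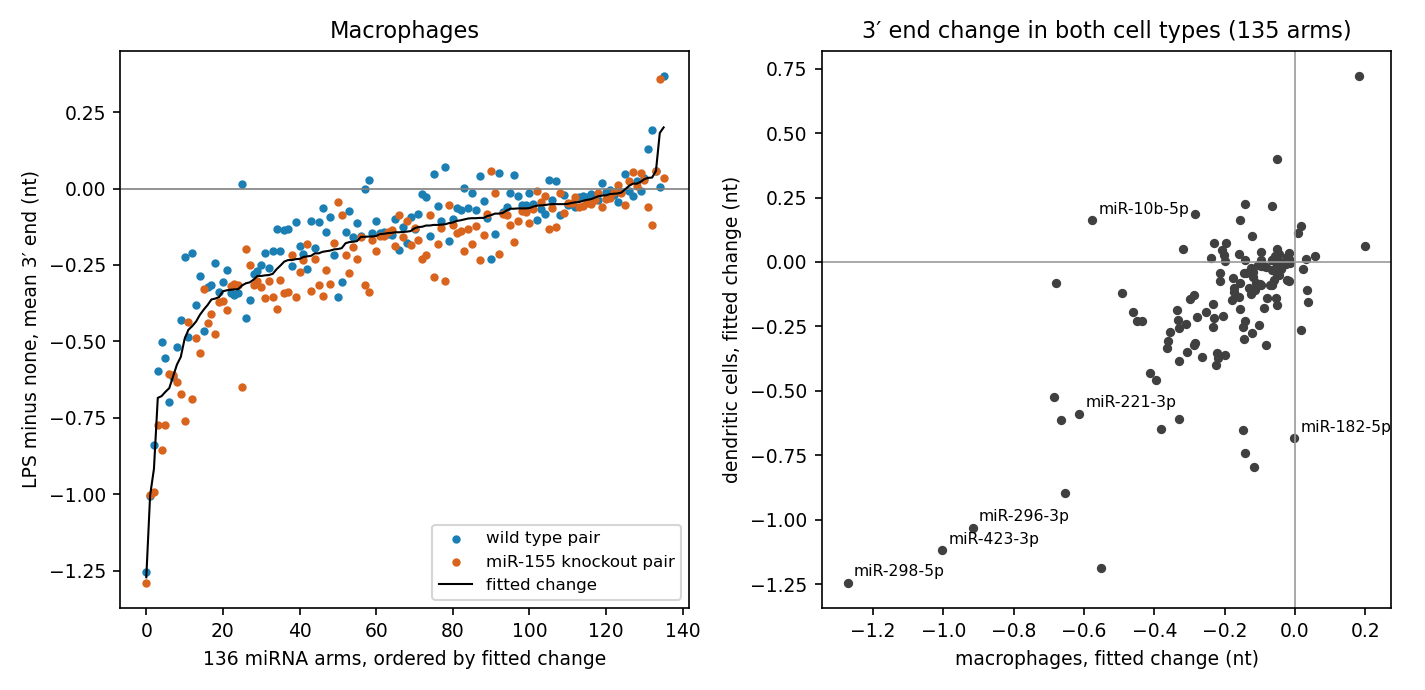
Left, the change in mean 3′ end position with LPS (nt) for 136 arms ordered by the fitted change (line), with the wild-type (blue) and knockout (orange) pair as points. Right, the fitted change in macrophages against that in dendritic cells for 135 arms, each a point. Most points lie below 0 in macrophages, with miR-298-5p lowest in both cell types.

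Most of the shift in the leading arms was in a few tags. miR-423-3p, from an intron of Nsrp1, had a mean length of 22.8, 21.8, 22.8 and 21.9 nt, against 22.6 to 22.8 nt with lipoproteins. Its end moved by -1 ± 0.04 nt (adjusted p = 5.1e-05, limma). The full-length tag and the tag lacking 4 bases are shown, with the bases that the short form lacks in capitals.
miR-423-3p, 23 nt: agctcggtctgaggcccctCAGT
miR-423-3p, 19 nt: agctcggtctgaggcccct
The full-length tag made 75.2, 53.5, 77.1 and 51.4% of the arm's reads, and the 19 nt tag made 2, 15.8, 3.11 and 13.5%. The forms of 20 to 22 nt each made 6.25% or less in all 4 libraries, so the shift lay mainly in the 2 tags shown.

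miR-221-3p, which promotes cell cycle entry, ended earlier by 0.61 ± 0.03 nt (adjusted p = 7.42e-05, limma), with mean lengths of 22.4, 21.7, 22.4 and 21.8 nt. Its tags of 23, 22 and 21 nt differ by 1 base each, and the capitals mark what the shortest lacks.
miR-221-3p, 23 nt: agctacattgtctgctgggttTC
miR-221-3p, 22 nt: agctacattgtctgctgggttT
miR-221-3p, 21 nt: agctacattgtctgctgggtt
The 23 nt tag made 49.4, 13.2, 50.8 and 18.7% of the reads of miR-221-3p, and the 21 nt tag made 7.12, 23.8, 7.24 and 21.6%. miR-298-5p moved most, by -1.27 ± 0.09 nt (adjusted p = 1.48e-04), with mean lengths of 21.5, 20.3, 21.6 and 20.4 nt. Its 23 nt tag made 31.1, 7.81, 31.8 and 7.81% of reads and its 20 nt tag 9.96, 27.9, 8.99 and 26.4%. miR-296-3p ended earlier by 0.92 nt, miR-425-3p by 0.65 nt and miR-181a-5p, with 399165 to 713857 reads per library, by 0.30 nt.

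**Figure D4:**
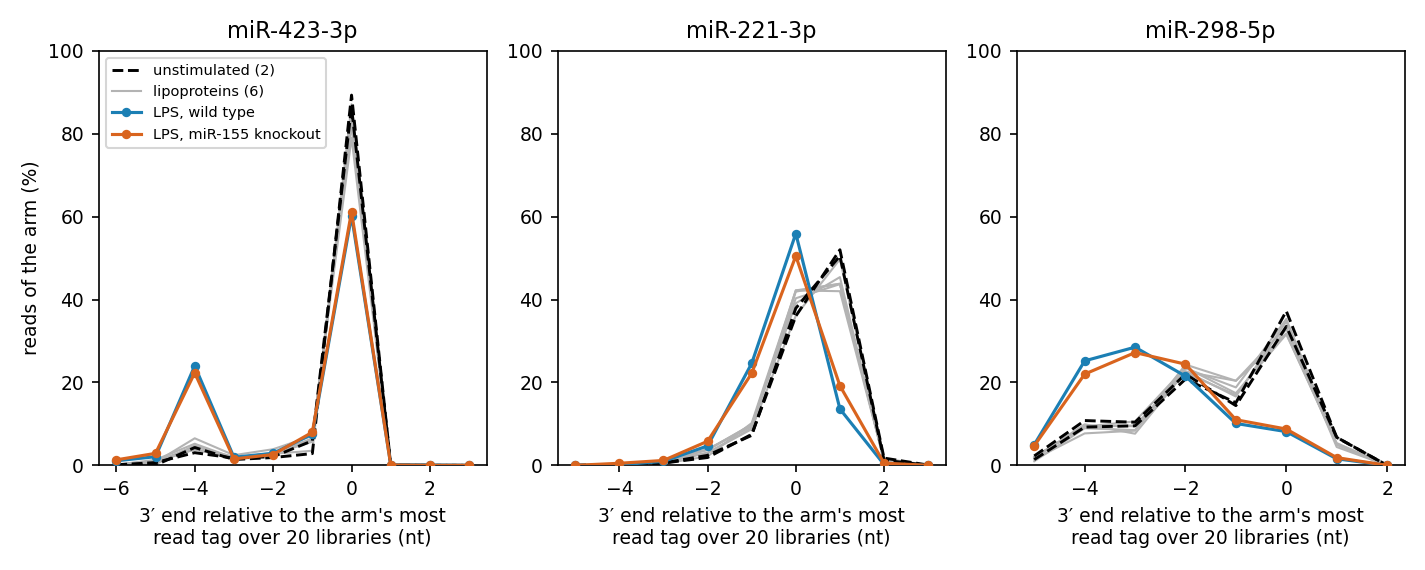
Share of an arm's reads (%) by the position of the 3′ end relative to the arm's most read tag (nt) for miR-423-3p, miR-221-3p and miR-298-5p. Dashed black lines are the 2 unstimulated, grey lines the 6 lipoprotein, and blue and orange lines the LPS-treated wild-type and knockout libraries. The LPS lines separate from the other 8 libraries, with a second peak 4 nt short in miR-423-3p.

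Of the 66 arms, 9 (13.6%) were also called higher and 10 (15.2%) lower in abundance, against 13.4% and 5.91% of all 372 arms. The 66 come from the 136 arms with a mean of at least 500 reads. The shares among those 136 were not computed, so no enrichment can be read from these values. In dendritic cells 64 of 135 arms were called shorter and 4 longer with LPS. miR-423-3p moved by -1.12 nt there, miR-298-5p by -1.24 nt and miR-221-3p by -0.59 nt. The response differed between the cell types in 5 of 135 arms (3.70%), namely miR-182-5p, miR-26a-5p and miR-582-3p, shorter in dendritic cells, and miR-10b-5p and miR-181a-5p, shorter in macrophages. miR-182-5p ended earlier by 0.68 nt in dendritic cells and moved by -0.002 nt in macrophages (difference 0.68 ± 0.06 nt, adjusted p = 5.78e-05, limma).

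Reads of 18 to 26 nt of several other RNA classes were also shorter on average with LPS in both pairs. The mean length moved by -0.116 and -0.148 nt for rRNA fragments and by -0.333 and -0.285 nt for mitochondrial rRNA fragments. It moved by -0.065 and -0.186 nt for snRNA and by -0.054 and -0.166 nt for snoRNA and scaRNA fragments. For mRNA, lncRNA and other transcripts the values were -0.122 and -0.113 nt, and for reads matched to no annotated RNA -0.148 and -0.18 nt. Misc RNA moved by 0.072 and 0.045 nt, other reads of miRNA hairpins by 0.105 and 0.022 nt, and mitochondrial tRNA by -0.116 and 0.926 nt. The part of a length difference between libraries in the miRNA result was not tested. With ends kept to 2 nt around the most abundant end, 59 of the 66 arms were still called.

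Reads with 1 base added that the hairpin does not hold were counted as tails. No A tail was called among 136 arms (0%; 28 arms had an unadjusted p under 0.05 with limma, and 6 arms were called in the fit of all 20 libraries). U tails changed in 8 of 136 arms (5.88%), 3 higher and 5 lower. The U tail share of miR-378a-3p, which itself fell, was 7.03, 13.7, 9.38 and 16.8% (log2 odds 1.02 ± 0.09, adjusted p = 0.0038, limma). That of miR-23b-3p was 48.5, 30.8, 37.7 and 23.5%, and that of miR-181a-5p 1.4, 0.661, 1.41 and 0.666%. The number of calls was 0 or 1 when any of the 4 libraries was left out, and miR-378a-3p kept its call in 3 of the 4.

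Beyond the arms, 51 loop and flank fragments of the hairpins were tested in 1 fit with the arms, and 2 (3.92%) were called. The loop of Mir16-1, on the minus strand in an exon of Dleu2, gave a 20 nt tag that lies directly next to miR-16-1-3p (chr14:61631916-61631935). It is shown because its fall held in every fit without 1 of the 4 libraries.
Mir16-1 loop: ttaagattctgaaattacct
The tag's region held 4801, 1228, 7706 and 1908 reads, or 668, 154, 818 and 243 CPM, with both LPS libraries below the lipoprotein range of 373 to 520 CPM. The log2 change was -1.89 ± 0.21 (adjusted p = 1.18e-05, edgeR), and -2.32 to -1.54 without 1 of the 4 libraries, each called. The adjoining arm miR-16-1-3p fell from 38.8 to 25.3 and from 71.1 to 13.9 CPM (-1.42 ± 0.34, adjusted p = 0.00626). Reads of miR-16-5p, from the other arm and from the Mir16-2 hairpin, were not called. The other called fragment, a flank of Mir674, had 42 reads or fewer per library.

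For 2 of the 51 fragments (3.92%) the response differed between the genotypes. The loop of Mir34a held 17.1 and 4.14 CPM in the wild type and 36.1 and 44.3 CPM in the knockout (difference 2.82 ± 0.54, adjusted p = 0.0088, edgeR), against 14.9 to 31.5 CPM with lipoproteins, and rested on 33 to 348 reads. The 5′ flank of Mir326, in an intron of Arrb1, held 145 and 406 CPM in the wild type and 133 and 114 CPM in the knockout (difference -1.49 ± 0.30, adjusted p = 0.00905, edgeR), with lipoprotein values of 96.5 to 164 CPM. The LPS-treated wild-type library thus held the low value of the Mir34a loop and the high value of the Mir326 flank.

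Among the other small RNAs, fragments of annotated snRNA, snoRNA, rRNA and related genes of 18 to 45 nt were counted as reads per 1e6 reads of the library (RPM). Of 271 genes, 1 (0.369%) was called, Rnu2-10, a gene of the U2 RNA that recognises the branch point in splicing (chr11:101658238-101658428, plus strand). It gave 195, 1595, 218 and 703 RPM (2.52 ± 0.44 on the log2 scale, adjusted p = 0.00848, edgeR). Its most read tag is shown.
Rnu2-10 tag: aaatggatttttggaagtagg
That tag was read 297, 8340, 496 and 3826 times. The lipoprotein libraries gave 605 to 1781 RPM of Rnu2-10, so the 2 unstimulated libraries were the low ones, and LPS differed from the lipoproteins by 0.20 (adjusted p = 0.763). The call ended without either unstimulated library (adjusted p = 0.198 and 0.0833).

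**Figure D5:**
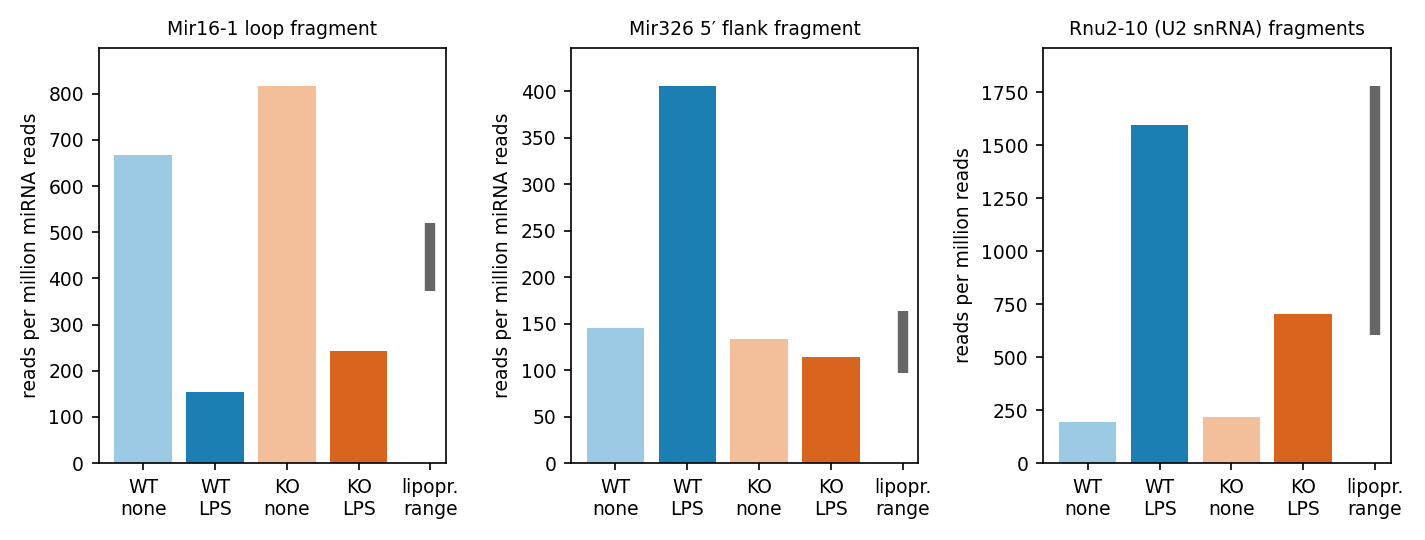
Bars, starting at 0, give the Mir16-1 loop and the Mir326 5′ flank in CPM of miRNA reads and Rnu2-10 in RPM of all reads, in the 4 libraries (WT wild type, KO miR-155 knockout). The grey bar is the range of the 6 lipoprotein libraries. The loop is lowest with LPS in both genotypes, the flank is high in 1 library and Rnu2-10 is low in both unstimulated libraries.

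As a class, snRNA fragments made 0.0787, 0.304, 0.0814 and 0.143% of reads, 3.86-fold and 1.76-fold higher with LPS, against 0.128 to 0.344% with lipoproteins. The exact (Clopper-Pearson) 95% intervals, which cover counting error only, were 0.301 to 0.307% for the LPS-treated and 0.0772 to 0.0802% for the unstimulated wild-type library. Of 203 snoRNA and scaRNA genes none was called (median log2 change -0.02), and the class made 0.807, 0.827, 1.13 and 0.936% of reads. Fragments of rRNA made 6.24, 6.20, 7.25 and 8.06%, and miRNA arms made 53.3, 53.2, 48.3 and 48.5%. Class shares rest on 1 library per condition and were not tested.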

How the data were processed

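Small RNA libraries (TruSeq kit, per the labels' protocols) were deposited as tags of 18 to 45 nt, each with its read count, made by the authors. The submitters' processing notes name CASAVA 1.8.2; no source used here gives the adapter removal, an aligner or a build. The 4 macrophage libraries hold 1 sample each of 2 genotypes with and without LPS. Members and lists were chosen with earlier results of these data known.

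Exact matches of tags of 18 to 26 nt were sought in 1180 GENCODE M21 hairpins (GRCm38), counting tags with a start within 2 nt of the main start, anchored to RefSeq mature miRNAs for 1007 arms. Reads that fit several arms were split equally. The 372 arms that reached 5 CPM in 2 or more libraries were tested with edgeR 4.0.16 in R 4.3.3 (TMM, robust quasi-likelihood, culture and stimulus within cell type, 8 residual degrees of freedom). Arm ratios, ends and tails used limma 3.58.1 on the 10 macrophage libraries (pseudocount 0.5; arms with a mean of at least 500 reads for ends and tails). Other small RNAs were matched to annotated genes; nuclear tRNA was not analysed here. Called means an adjusted p under 0.05.

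Named are up to 15 arms each way with the largest called change among those averaging 50 reads or more and moving 1 way in both pairs, the listed miRNAs, the 12 most abundant arms, and the leading arms, hairpins or genes of each other test. Hairpin fragments, the 3′ end comparison with dendritic cells and miR-142a-5p were chosen after their values were seen. Alternatives were upper-quartile, total-read and DESeq2 1.42.0 scaling, other filters, other sets of libraries and leaving out each library. On simulated data, the arm test recovered 75.3% of changes of log2 1.5 and called 1.08% of unchanged arms. The 3′ end test recovered 85.3% of shifts of 0.3 nt and called 0.98% of unchanged arms. The 5′ end test recovered 64.7% of changes of 1 in log2 odds, and the other small RNA test 47.8% of changes of log2 1.5. Noise was drawn separately for each arm and the end shifts went both ways. The 3′ end rate therefore does not cover a length difference shared by all reads of a library.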

Additional observations from a re-analysis of the deposited data

Results flagged for a closer look

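These results are given because the response to LPS differed between genotypes or between cell types by a test of the difference itself. On the log2 scale, the knockout minus the wild-type response of macrophages was -8.34 for miR-125b-2-3p (not read in 1 library, so no measure of size), -2.77 for miR-3473b-3p, 1.39 for miR-351-5p and 2.4 for miR-92a-1-5p. For the flank fragment of Mir326 it was -1.49 and for the loop fragment of Mir34a 2.82.

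The macrophage minus the dendritic cell response was higher for miR-183-5p (1.88), miR-1948-3p (2.47), miR-29a-3p (1.05), miR-8114-3p (1.87) and miR-6539-5p (5.97). It was lower for let-7e-5p (-2.45), miR-99b-5p (-1.34), miR-99b-3p (-2.71), miR-147-3p (-5.41), miR-342-5p (-1.32) and miR-378a-3p (-0.87). miR-147-3p started from a few CPM in dendritic cells. The arms named here are a part of the 49 called, which also hold miR-182-5p and miR-125a-5p. Scaling by total miRNA reads moved the median difference of all arms from 0.20 to 0.50.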

How the results depend on the processing

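With 1 library per condition, precision is set by the spread shared over libraries, and arms with few reads are the least certain. For LPS in macrophages the 72 calls became 45 in a fit of the 4 libraries alone and 46 to 61 without 1 of them, with 67 without the wild-type eLDL library. The difference from dendritic cells became 89 calls with total miRNA reads, a setting added after seeing the data. Without 1 LPS library, the 47 calls against lipoproteins became 35 to 37. The 3 arm-ratio calls became 9 with all 20 libraries, 12 with at least 50 reads on the lower arm and 1 to 4 without 1 library. The 5′ end call became 7 with all 20 libraries, 6 with a mean of at least 2000 reads, 0 to 1 without 1 library, and 0 without the wild-type eLDL library (added after seeing the data). The 3′ end calls ran from 43 to 91 without 1 library; 59 of the 66 held with ends kept to 2 nt. A tail calls became 6 with all 20 libraries, 3 with a mean of at least 2000 reads and 0 to 1 without 1 library. U tail calls became 13 with all 20 libraries, 0 to 1 without 1 of the 4 libraries and 5 without the wild-type eLDL library. Other small RNA calls became 2 with TMM, 5 with tags of 18 to 26 nt and 0 to 13 without 1 library. With tags of 18 to 26 nt the LPS ratios were 4.02 and 1.83 for snRNA, 1.14 for snoRNA in the wild type, and 1.01 and 1.12 for rRNA. The cause of these moves was not tested. Recomputed singly were miR-155-5p, the named called arms and the called hairpins, ends, tails and genes: none of these turned its direction under the alternatives run for it, 1005 values kept their side of the threshold, 271 lost their call and 2 (miR-155-5p) gained one. Uncalled features were not followed in this way, and other settings also call features that are not called here.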
